A study of Mus musculus with 2 samples.

Results

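Cytotoxic memory-like CD8 T cells were selected on measured UMI counts in droplet-based single-cell RNA-seq (10x Genomics 3' v3.1 chemistry) of mouse spleen. A cell was a member when it had at least 500 genes and at most 10% mitochondrial counts, and when its raw counts of unique molecular identifiers (UMIs) met every clause of a marker rule. These clauses were Cd3d, Cd3e and Cd3g together at 2 or more, Cd8a and Cd8b1 together at 2 or more with Cd8b1 at 1 or more, Ikzf2 at 2 or less, Cd79a at 1 or less, and Ccl5 and Nkg7 together at 3 or more. The rule found 418 members among 16731 deposited barcodes, 236 in the fl/fl library and 182 in the +/+ library. The fl/fl library came from Foxp3YFP-Cre Kmt2dfl/fl mice and the +/+ library from Foxp3YFP-Cre Kmt2d+/+ mice. Both genotypes carried the Foxp3YFP-Cre allele, in which the Foxp3 locus drives a fused YFP and Cre recombinase in regulatory T (Treg) cells, and the floxed gene encodes the histone H3 lysine 4 methyltransferase KMT2D. Each library pooled the sorted cells of 3 mice, and there was 1 library per genotype. The sort was for CD4+ FoxP3+ cells, so CD8 T cells were not its target. Age and sex of the mice are not given in the sources used here.

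CD8 T cells recognise peptides on MHC class I. After priming they can become memory cells that keep Ccr7 and circulate through lymph nodes, or effector memory cells that lose it and hold ready granzymes, perforin and chemokines. T-bet (Tbx21), Eomes and Zeb2 are transcription factors of that effector and memory programme, and interleukins 12, 15 and 18 drive it. Ccl5 and Nkg7, a chemokine and a granule membrane protein, belong to that programme and served as its markers in the rule.

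With 1 library per genotype no test between genotypes was possible. All intervals below are 95% intervals that cover counting error only, not differences between mice. UMIs were summed over members and scaled to CPM, the count for every 1000000 UMIs of the sum, and a log2 ratio is fl/fl over +/+ unless stated otherwise. Summed CPM cannot tell apart fewer cells with a transcript and less of it per cell, so cell numbers are given for the main genes. A gene was counted as higher or lower in fl/fl members when the ratio was at least 1.5-fold, its interval excluded equality and its mean was at least 20 CPM. This is a rule of size and not a test.

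Members made up 2.73% (2.40 to 3.10) of the 8634 fl/fl barcodes past the filters and 2.34% (2.01 to 2.70) of the 7790 +/+ barcodes. They were 70.4% (65.2 to 75.3) of the 335 fl/fl CD8 T cells and 73.1% (67.1 to 78.5) of the 249 +/+ CD8 T cells, that is, of cells meeting every clause but the last. The intervals of the 2 libraries overlap for both shares. The remaining 99 fl/fl and 67 +/+ cells are called other CD8 T cells here. Members held a median of 6896 UMIs and 2317 genes in fl/fl and 7188 UMIs and 2400 genes in +/+. The sums behind the values below were 1813966 UMIs in fl/fl and 1461053 in +/+, out of library totals of 63989234 UMIs in fl/fl and 53680614 in +/+. The 2 libraries shared 15 barcodes, none of them a member.

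The label was checked against markers. Cd8b1, the CD8 beta chain, was at 599 CPM in fl/fl and 535 CPM in +/+ members, and Cd8a, the alpha chain, at 302 CPM in fl/fl and 274 CPM in +/+. Ccl5 was at 9743 CPM in fl/fl and 5820 CPM in +/+ members, and Nkg7 at 1162 CPM in fl/fl and 996 CPM in +/+. These genes chose the cells, so their levels are a description. Eomes, the only marker of the label outside the rule, was at 98.7 CPM in fl/fl and 80.8 CPM in +/+ members, with UMIs in 91 fl/fl and 65 +/+ cells. These are 38.6% of fl/fl and 35.7% of +/+ members. Other CD8 T cells held it too, in 15.2% of fl/fl and 13.4% of +/+ cells, so Eomes does not mark members alone. Ncr1, an NK cell receptor, had no UMI in members of either library. Foxp3 had no UMI in the 236 fl/fl members. Counting 3 cells for 0, this allows up to 1.27% of cells with a UMI and sets no limit on cells that express it. It was seen in 1 of 182 +/+ members. Cd4 was at 8.82 CPM in fl/fl and 3.42 CPM in +/+ members. Of 12 NK cell markers, 2 were at 0 in fl/fl and 4 in +/+ members, and their summed level was 1066 CPM in fl/fl and 743 CPM in +/+. Trdc, the constant region of the delta chain, was seen in 0.424% of fl/fl and 2.75% of +/+ members. Of 12 Treg markers 1 was at 0 in each library, and their summed level was 262 CPM in fl/fl and 280 CPM in +/+ members. Of 8 gamma delta T cell markers, 5 were at 0 in fl/fl and 2 in +/+ members, with sums of 20.9 CPM in fl/fl and 27.4 CPM in +/+. Of 12 neutrophil markers, 8 were at 0 in fl/fl and 7 in +/+ members, with sums of 10.5 CPM in fl/fl and 27.4 CPM in +/+. The innate-like T cell, monocyte and conventional CD4 T cell lists summed to 766, 1228 and 82.7 CPM in fl/fl members and to 530, 1084 and 79.4 CPM in +/+ members. A sum can rest mainly on a single gene, as the innate-like sum does on Plac8, whose level is given below. Zbtb16, a marker of innate-like T cells, had UMIs in 2 fl/fl and 0 +/+ members. NK receptors are shared with effector CD8 T cells, and the part of other cell types in the results below was not tested.

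Few members carried RNA of another lineage, yet these few set the most extreme ratios. In 2 fl/fl and 2 +/+ members, at least 20 UMIs came from Cd74, H2-Aa, H2-Ab1, H2-Eb1, Jchain, Igkc and Hbb-bs together. Jchain, the immunoglobulin joining chain, was at 199 CPM in fl/fl and 2.74 CPM in +/+ members, but 1 cell held 95.6% of the fl/fl UMIs. Hbb-bs, a beta globin, was at 87.1 CPM in fl/fl and 0.68 CPM in +/+ members, with 98.1% of the fl/fl UMIs in 1 cell. H2-Aa, an MHC class II chain, was at 8.27 CPM in fl/fl and 138 CPM in +/+ members, with 153 of 202 +/+ UMIs in 1 cell. Its log2 ratio was -4.06 over all members and 0.25 (-1.0 to 1.56) without those 4 cells. H2-Ab1, H2-Eb1, Cd74, Cst3, Irf8, Tcf4, Fmnl2 and Slpi were also among the extreme ratios, and without the 4 cells each changed sign or had an interval that included 0. H2-Aa, H2-Ab1, H2-Eb1 and Cd74 were among the genes that picked the 4 cells. For the genes so used, and for lists that hold them, the change therefore follows in part from that choice. The plasma, B, dendritic and erythroid lists summed to 293, 2556, 316 and 153 CPM in fl/fl and to 39.0, 820, 747 and 14.4 CPM in +/+ over all members. Their summed levels without these cells were 51.4, 291, 315 and 17.3 CPM in fl/fl, and 37.4, 206, 337 and 14.8 CPM in +/+ members. A doublet score by the method of Scrublet called 2 fl/fl members and 1 +/+ member doublets.

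The members were not uniform, and the cytotoxic genes of the label were seen in only part of them. Ccl5 and Nkg7 together reached more than 20 UMIs in 139 fl/fl members (58.9%, 52.3 to 65.2) and in 80 +/+ members (44.0%, 36.6 to 51.5). A sum of 6 to 20 was found in 55 fl/fl (23.3%, 18.1 to 29.2) and 39 +/+ members (21.4%, 15.7 to 28.1). A sum of 3 to 5 was found in 42 fl/fl (17.8%, 13.1 to 23.3) and 63 +/+ members (34.6%, 27.7 to 42.0). The share above 20 was higher in fl/fl and the share at 3 to 5 was lower. As a share of all CD8 T cells the band above 20 held 41.5% (36.2 to 47.0) in fl/fl and 32.1% (26.4 to 38.3) in +/+, with overlapping intervals. These bands were drawn after the values were seen.

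**Figure D1:**
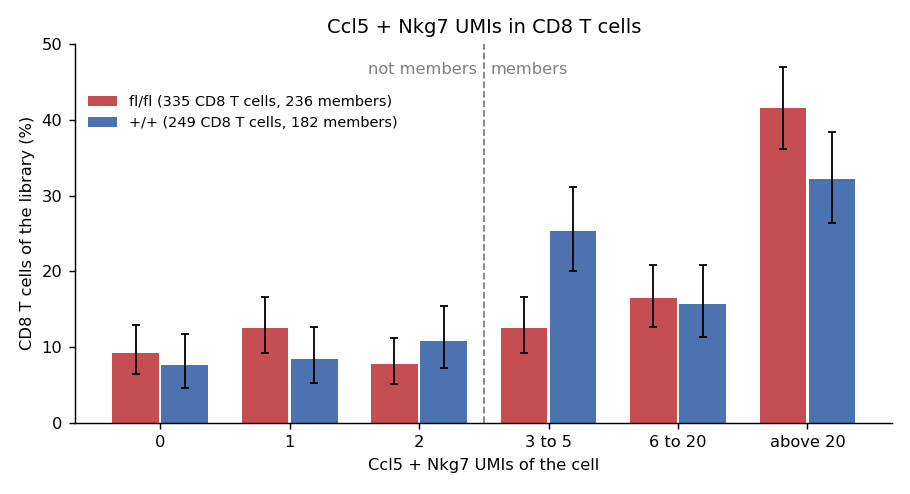
Bars give the percent of each library's CD8 T cells by the summed Ccl5 and Nkg7 UMIs of the cell (x axis), with fl/fl in red to the left of +/+ in blue, and error bars are 95% Clopper-Pearson intervals. The dashed line marks the rule: the share above 20 is higher in fl/fl, with overlapping intervals, and the share at 3 to 5 is lower.

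The cytotoxic genes were concentrated in the band above 20. Gzma, a granzyme, was at 1755 CPM in fl/fl and 1513 CPM in +/+ members above 20, against 0 CPM in fl/fl and 3.88 CPM in +/+ in the 3 to 5 band. Gzmb was at 280 CPM in fl/fl and 342 CPM in +/+ above 20, against 3.09 CPM in fl/fl and 0 CPM in +/+ at 3 to 5. Zeb2 was at 508 CPM in fl/fl and 349 CPM in +/+ above 20, against 0 CPM in fl/fl and 34.9 CPM in +/+ at 3 to 5. Cx3cr1, the fractalkine receptor of effector memory cells, was at 137 CPM in fl/fl and 116 CPM in +/+ above 20, against 3.09 CPM in fl/fl and 1.94 CPM in +/+ at 3 to 5. Klrg1, an inhibitory receptor of terminally differentiated effectors, and S1pr5, a receptor for exit from tissue, had UMIs only above 20 among the members of both libraries.

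Homing and naive genes ran the other way across the bands. With the low granzyme levels there, the cytotoxic part of the label is not borne out in the 3 to 5 band. Ccr7, the chemokine receptor of lymph node entry, was at 232 CPM in fl/fl and 190 CPM in +/+ at 3 to 5, against 23.3 CPM in fl/fl and 40.5 CPM in +/+ above 20. Lef1, a transcription factor of naive and stem-like T cells, was at 909 CPM in fl/fl and 1036 CPM in +/+ at 3 to 5, against 382 CPM in fl/fl and 315 CPM in +/+ above 20. At the edge of the rule, 23 fl/fl and 20 +/+ cells with a sum of 3 lay just inside and 26 fl/fl and 27 +/+ cells with a sum of 2 just outside. Nkg7 was at 396 CPM in fl/fl and 422 CPM in +/+ just inside, against 227 CPM in fl/fl and 244 CPM in +/+ just outside. Nkg7 is part of the sum that defines both groups, so this difference is set by the rule. Eomes, outside the rule, was at 53.1 CPM in fl/fl and 87.3 CPM in +/+ just inside. Just outside, Eomes was at 77.2 CPM in fl/fl and 33.5 CPM in +/+. Lef1 was at 986 CPM in fl/fl and 1150 CPM in +/+ just inside, against 958 CPM in fl/fl and 1224 CPM in +/+ just outside, and Gzmb and Gzmk were at or under 5.90 CPM on both sides. Eomes differed less between bands, at 97.4 CPM in fl/fl and 116 CPM in +/+ above 20 and at 58.7 CPM in fl/fl and 44.6 CPM in +/+ at 3 to 5, and its highest fl/fl level, 125 CPM, was at 6 to 20.

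**Figure D2:**
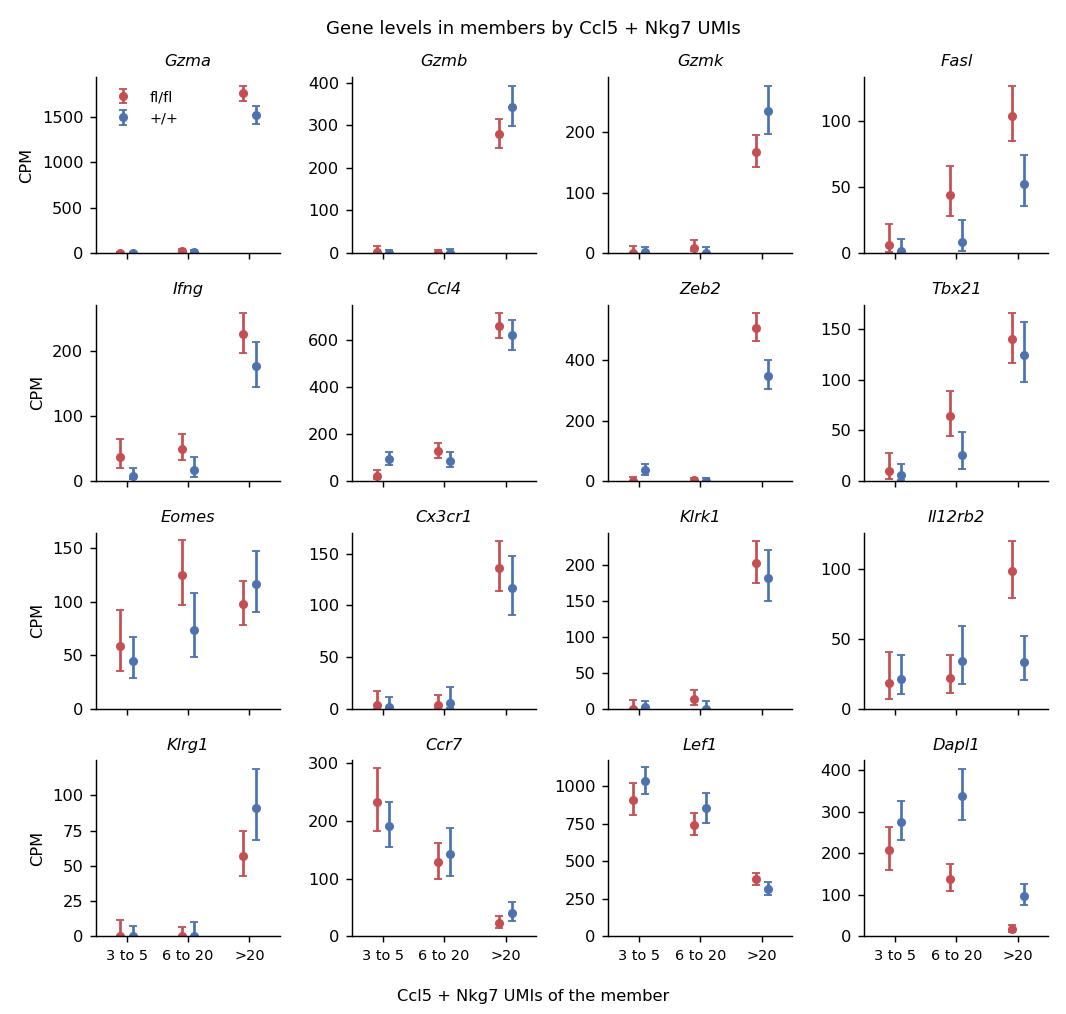
Each panel gives the level of 1 gene in CPM (y axis, from 0) in members of the 3 Ccl5 and Nkg7 bands (x axis), fl/fl in red to the left of +/+ in blue, with 95% Poisson intervals. Granzymes, Zeb2, Cx3cr1 and Klrk1 are low below the top band, where Zeb2 reaches 34.9 CPM in +/+, and Ccr7 and Lef1 are lowest in the top band.

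Promoters of Gzma and Ifng are shown because these effector genes had their highest level above 20 in both libraries, that of Nkg7 because the gene is part of the rule and of the bands, and that of Il12rb2 because its ratio between genotypes was among the 12 highest. Sequences are from RefSeq (GRCm38.p6), 300 bases each, 250 before to 50 after the gene start. They are Gzma (chr13:113100932-113101231, minus strand), Ifng (chr10:118440796-118441095, plus strand), Nkg7 (chr7:43436888-43437187, plus strand) and Il12rb2 (chr6:67376139-67376438, minus strand). Capitals mark matches, on either strand, to CACCTG (an E-box that ZEB proteins bind), TTCNNNGAA (the STAT consensus) and AGGTGTG (part of the T-box consensus). The first and the third can overlap by AGGTG, and no overlap occurs in these promoters.
Gzma: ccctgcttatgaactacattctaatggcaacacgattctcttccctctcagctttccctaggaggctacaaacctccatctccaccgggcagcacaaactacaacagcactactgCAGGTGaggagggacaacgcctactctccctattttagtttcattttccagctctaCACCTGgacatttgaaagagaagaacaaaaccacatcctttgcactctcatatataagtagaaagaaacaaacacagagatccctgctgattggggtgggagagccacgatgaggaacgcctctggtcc
Ifng: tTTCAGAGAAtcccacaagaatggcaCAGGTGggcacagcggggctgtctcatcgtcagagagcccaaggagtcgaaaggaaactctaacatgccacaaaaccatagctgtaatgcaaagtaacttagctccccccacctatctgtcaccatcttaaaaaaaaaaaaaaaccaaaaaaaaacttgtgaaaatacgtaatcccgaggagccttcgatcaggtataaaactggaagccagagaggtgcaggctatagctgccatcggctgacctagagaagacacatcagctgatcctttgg
Nkg7: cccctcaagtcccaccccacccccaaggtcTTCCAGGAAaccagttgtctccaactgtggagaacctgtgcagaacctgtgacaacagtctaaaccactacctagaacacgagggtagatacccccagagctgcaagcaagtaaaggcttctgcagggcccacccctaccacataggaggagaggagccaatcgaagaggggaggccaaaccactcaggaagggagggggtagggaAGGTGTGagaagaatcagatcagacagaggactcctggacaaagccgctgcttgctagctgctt
Il12rb2: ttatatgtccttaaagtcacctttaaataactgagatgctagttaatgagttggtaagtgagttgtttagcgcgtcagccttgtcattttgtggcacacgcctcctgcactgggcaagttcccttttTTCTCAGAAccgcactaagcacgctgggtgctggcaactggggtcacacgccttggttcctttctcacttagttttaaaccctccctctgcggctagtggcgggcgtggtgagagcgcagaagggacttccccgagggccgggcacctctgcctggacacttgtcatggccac
Gzma holds the E-box 135 and 79 bases before its start, and Ifng holds it 224 bases and the STAT letters 249 bases before. Nkg7 holds the STAT letters 220 bases and the T-box letters 14 bases before its start, and Il12rb2 the STAT letters 123 bases before. Of 20 effector genes searched, 17 matched an entry, with 20 promoters. TTCNNNGAA was in 6 of these 20 promoters (30%) and in 8.30% of all 32851 promoters. CACCTG was in 5 (25%), against 20.2% of all promoters, and AGGTGTG in 1 (5%), against 5.84%. A match is a description of letters and no evidence of binding.

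Against other CD8 T cells, counted as a difference when a gene was at least 2-fold apart the same way in both libraries, 95 of 5652 genes were higher in members (1.68%) and 20 were lower (0.354%). The rule read the same cells, so this is a description. Klrk1, the activating receptor NKG2D, was at 109 CPM in fl/fl and 74.6 CPM in +/+ members with no UMI in other CD8 T cells, so it was at least 25-fold higher in fl/fl and at least 11.8-fold higher in +/+, counting 3 UMIs per library for 0. Klrc1, the inhibitory receptor NKG2A, was at least 31-fold higher in fl/fl and at least 15.8-fold higher in +/+ members on the same basis. Gzma was at 922 CPM in fl/fl and 618 CPM in +/+ members, against 4.37 CPM in fl/fl and 4.22 CPM in +/+ other CD8 T cells. Ccl4, a chemokine of activated T and NK cells, was at 386 CPM in fl/fl and 305 CPM in +/+ members, against 11.7 CPM in fl/fl and 8.43 CPM in +/+ other CD8 T cells. Gzmb, Gzmk, Cx3cr1, Zeb2, Klre1 and the kinase gene Lrrk1 were also among the 12 highest, together with Hdac9, whose fl/fl UMIs were 96.3% from 1 cell. The lowest were led by Igf1r, the insulin-like growth factor receptor, at 13.2 CPM in fl/fl and 11.6 CPM in +/+ members against 52.5 CPM in fl/fl and 73.8 CPM in +/+ other CD8 T cells. Actn1, an actin crosslinker, was at 109 CPM in fl/fl and 144 CPM in +/+ members, against 240 CPM in fl/fl and 333 CPM in +/+ other CD8 T cells. Inpp4b, a phosphoinositide phosphatase, was at 524 CPM in fl/fl and 470 CPM in +/+ members, against 1165 CPM in fl/fl and 1029 CPM in +/+ other CD8 T cells.

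The lists placed these differences among functions. Among all 5652 genes of this comparison 1.68% were higher and 0.354% lower, the shares to set beside each list. Of the measured genes of each list, those higher in members than in other CD8 T cells were 5 of 6 chemokines and cytokines, 7 of 17 cytotoxic granule genes, 9 of 28 memory and effector surface genes, 6 of 29 transcription factors, 3 of 5 NK receptors and 4 of 33 cytokine receptor and STAT genes. None of 23 naive T cell genes was higher and 1 was lower. No gene was called either way in 30 immediate-early and dissociation stress genes, 29 metabolism genes, 17 histone methyltransferase and demethylase genes and 7 purinergic genes. At the shares of all genes, lists of this size hold few or no calls, so this is no result about these functions.

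Shares of members with a UMI were taken after thinning every cell to 2500 UMIs, which left 236 fl/fl and 181 +/+ members and left out 55 fl/fl and 7 +/+ B cells. B cells, which should lack these genes, give the background, at a median of 4458 UMIs in fl/fl and 5031 in +/+ before thinning. Ccl4 was seen in 40.3% (33.9 to 46.8) of fl/fl and 24.3% (18.3 to 31.2) of +/+ members, against 2.39% of fl/fl and 1.99% of +/+ B cells. Before thinning the Ccl4 shares of members were 55.1% in fl/fl and 40.1% in +/+. Gzma was seen in 28% (22.3 to 34.2) of fl/fl and 17.1% (11.9 to 23.4) of +/+ members, against 0.681% of fl/fl and 0.398% of +/+ B cells. Before thinning its shares were 34.3% in fl/fl and 18.7% in +/+. Tbx21 was seen in 20.8% (15.8 to 26.5) of fl/fl and 11% (6.88 to 16.5) of +/+ members, and in 0.852% of fl/fl and 0.398% of +/+ B cells. Before thinning these shares of members were 39.8% in fl/fl and 30.2% in +/+. After thinning, only the Ccl4 intervals of these 3 genes do not overlap between libraries. Before thinning the Gzma intervals, 28.3 to 40.8 in fl/fl and 13.3 to 25.1 in +/+, do not overlap either. Cells of 1 library are not replicates, so neither result compares the genotypes. Eomes was seen in 16.5% of fl/fl and 14.4% of +/+ members, Gzmk in 20.8% of fl/fl and 14.9% of +/+, and Klrg1 in 8.9% of fl/fl and 7.18% of +/+, all with overlapping intervals and with at most 0.0852% in B cells. Their unthinned shares were 38.6% in fl/fl and 35.7% in +/+ for Eomes, 29.7% in fl/fl and 23.6% in +/+ for Gzmk, and 14% in fl/fl and 14.8% in +/+ for Klrg1. Zeb2 was seen in 27.5% of fl/fl and 19.3% of +/+ members, while B cells, which express it, were at 33.6% in fl/fl and 34.5% in +/+ and other CD8 T cells at 0% in fl/fl and 2.99% in +/+.

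**Figure D3:**
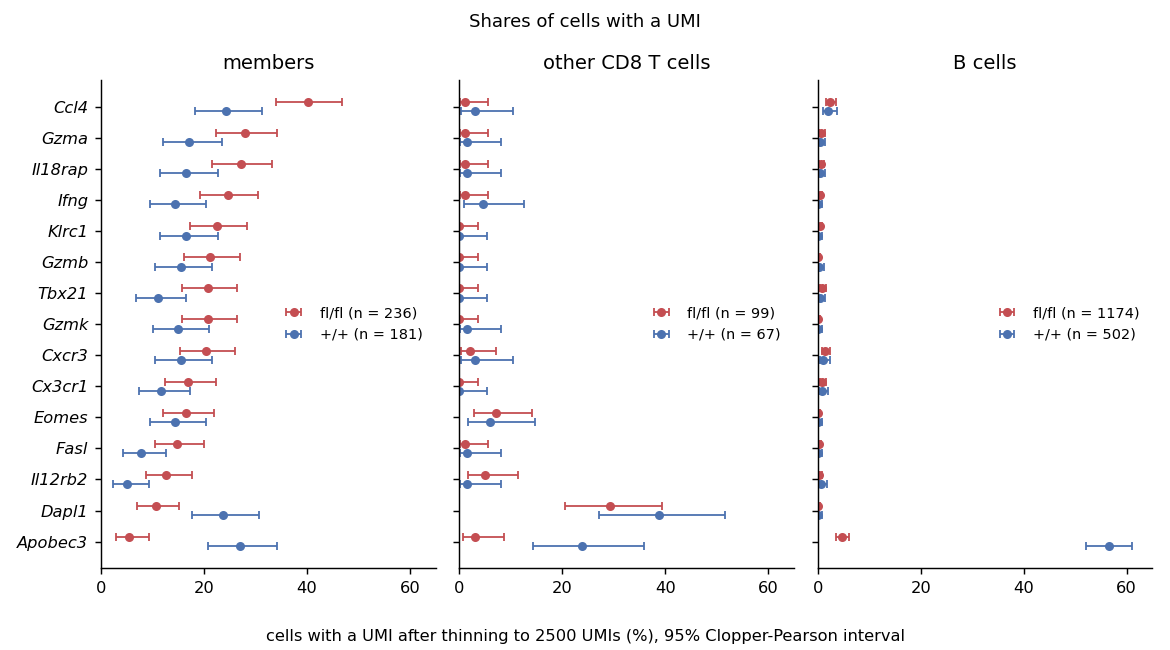
Points give the percent of cells with a UMI (x axis) for 15 genes (y axis) after thinning to 2500 UMIs, in members, other CD8 T cells and B cells, with 95% Clopper-Pearson intervals, fl/fl in red above +/+ in blue. Effector genes are seen mainly in members, Dapl1 in fewer fl/fl than +/+ members, and Apobec3 in fewer fl/fl than +/+ cells in all 3 populations.

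Within members, effector genes were found together and apart from Ccr7. Of 40 fl/fl members with a Cx3cr1 UMI, 80.0% also had Zeb2, 75.0% had Gzma and 32.5% had Klrg1. Of 21 such +/+ members, 81.0% had Zeb2, 52.4% had Gzma and 33.3% had Klrg1. Among members without Cx3cr1, Zeb2 was seen in 16.8% of fl/fl and 11.2% of +/+ cells. Gzma was seen in 18.4% of fl/fl and 12.5% of +/+ cells without Cx3cr1, and Klrg1 in 4.08% of fl/fl and 3.75% of +/+. Ccr7 was seen in none of the cells with Cx3cr1 in either library. Lef1 was not apart in this way, with UMIs in 55.0% of fl/fl and 42.9% of +/+ members with Cx3cr1. Its shares without Cx3cr1 were 69.4% in fl/fl and 73.75% in +/+. Ifng, interferon gamma, was accompanied by Ccl4 in 56.9% of 58 fl/fl and 42.3% of 26 +/+ members with Ifng. Without Ifng, Ccl4 was seen in 34.8% of fl/fl and 21.3% of +/+ members. Klrc1 was accompanied by its relative Klrc2 in 30.2% of 53 fl/fl and 30% of 30 +/+ members. Without Klrc1, Klrc2 was seen in 2.19% of fl/fl and 1.32% of +/+ members. Depth per cell and the number of UMIs of each gene bear on all these shares.

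The receptor segments seen were varied. The 3' chemistry reads few V segments, and a Trbv UMI was found in 43 fl/fl members (18.2%) and 41 +/+ members (22.5%). They came from 16 Trbv genes in fl/fl and 15 in +/+. No single Trbv gene was found in more than 7 members of a library. Trbv12-2, Trbv16 and Trbv19 each reached 7 in fl/fl, and Trbv12-2 reached 7 in +/+. Trav segments were found in 51 fl/fl and 29 +/+ members, from 29 genes in fl/fl and 23 in +/+. More than 1 Trbv gene was seen in 5 fl/fl and 3 +/+ members. Clone sizes cannot be read from these counts.

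Between genotypes, more genes were lower than higher in fl/fl members. Of 5762 measured genes, 89 (1.54%) were higher in fl/fl members and 208 (3.61%) were lower, 297 in all (5.15%). Without the 4 members carrying other-lineage RNA, 87 of 5739 (1.52%) were higher and 161 (2.81%) lower. The median log2 ratio over all measured genes was -0.04, and scaling to this median gave 113 higher and 159 lower. Kmt2d, the targeted gene (GRCm38 chromosome 15, 98831669 to 98871204, minus strand), was at 59.0 CPM in fl/fl and 67.8 CPM in +/+ members (107 UMIs in fl/fl and 99 in +/+), a log2 ratio of -0.20 (-0.61 to 0.21). A 3' tag outside a deleted exon checks nothing about the deletion, and Cre is driven from Foxp3, which had UMIs in 1 member. P2rx7, the ATP-gated channel named in the study's title, was under the level limit at 10.5 CPM in fl/fl and 4.79 CPM in +/+ members (19 UMIs in fl/fl and 7 in +/+), with a log2 ratio of 1.13 (-0.18 to 2.62).

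Secreted and death-inducing effectors held several genes that were higher in fl/fl members. Of 8 measured chemokines and cytokines, 4 were higher (Fasl, Ifng, Ccl5 and Ccl3) and none was lower. Among all measured genes 1.54% were higher and 3.61% lower. Ccl5 is part of the rule that chose the cells, so its call is a description. The median log2 ratio was 0.48 with Ccl5 included. Above 20, Fasl was higher and Xcl1 and Il16 were lower, with a median of 0.19. Fasl (chromosome 1, 161780689 to 161788495, minus strand), the ligand that kills through Fas, was at 68.4 CPM in fl/fl and 24.0 CPM in +/+ members, from 124 UMIs in 75 fl/fl cells and 35 UMIs in 26 +/+ cells. Its log2 ratio was 1.51 (0.96 to 2.10), and it was 0.99 (0.39 to 1.62) among members above 20. Ifng was at 139 CPM in fl/fl and 78.7 CPM in +/+ members, a log2 ratio of 0.83 (0.50 to 1.16), but at 227 CPM in fl/fl and 177 CPM in +/+ above 20, a ratio of 0.36 (0.01 to 0.71). Ccl3, a chemokine of activated T cells, was at 54.6 CPM in fl/fl and 35.6 CPM in +/+ members, a log2 ratio of 0.62 (0.12 to 1.13). Ccl5, used in the rule, had a ratio of 0.74 over all members and 0.40 above 20. Xcl1, a chemokine for cross-presenting dendritic cells, was at 63.4 CPM in fl/fl and 71.2 CPM in +/+ members, but at 44.5 CPM in fl/fl and 138 CPM in +/+ above 20, a log2 ratio of -1.64 (-2.21 to -1.08) there, with 26 of the 104 +/+ member UMIs in 1 cell.

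Granule genes had a median ratio close to that of all genes. None of 18 measured cytotoxic granule genes was counted as higher or lower, with a median log2 ratio of 0.07. Among members above 20, none of 19 measured there was higher and 4 were lower (Gzmm, Prf1, Cst7 and Rab27a), against 3.16% lower among all genes, and the median was near 0. Gzma was at 922 CPM in fl/fl and 618 CPM in +/+ members, a ratio of 0.58 (0.46 to 0.70) that lay just under 1.5-fold and was 0.21 (0.10 to 0.33) above 20. Gzmb was at 146 CPM in fl/fl and 139 CPM in +/+ members, and Gzmk at 89.9 CPM in fl/fl and 95.8 CPM in +/+. Prf1, perforin, was at 65.1 CPM in fl/fl and 78.0 CPM in +/+ members, and above 20 at 78.3 CPM in fl/fl and 133 CPM in +/+, a log2 ratio of -0.77 (-1.24 to -0.29). Gzmm was at 65.6 CPM in fl/fl and 60.2 CPM in +/+ members, and above 20 at 79.4 CPM in fl/fl and 138 CPM in +/+, a log2 ratio of -0.80 (-1.27 to -0.33).

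Transcription factors and receptors of the effector programme held calls both ways. Above 20, the ratios of Zeb2, Tbx21 and Cxcr3 were lower than over all members, and that of Il12rb2 was higher. Among all measured genes 1.54% were higher and 3.61% lower, the shares to set beside each list of this paragraph. Of 30 measured transcription factors, Zeb2 and Tbx21 were higher and Irf8 was lower, and Irf8 had 31 of 59 +/+ UMIs in 1 cell. Zeb2 was at 265 CPM in fl/fl and 154 CPM in +/+ members, from 83 fl/fl and 45 +/+ cells, a ratio of 0.78 (0.55 to 1.02), and its ratio above 20 was 0.54 (0.30 to 0.78). Tbx21 was at 93.7 CPM in fl/fl and 58.9 CPM in +/+ members, a ratio of 0.67 (0.29 to 1.06), and above 20 its ratio was 0.16 (-0.26 to 0.59). Eomes was at a ratio of 0.29 (-0.05 to 0.64). Il12rb2, the signalling chain of the interleukin-12 receptor (chromosome 6, 67291318 to 67376188, minus strand), was at 61.2 CPM in fl/fl and 29.4 CPM in +/+ members, from 55 fl/fl and 30 +/+ cells, a ratio of 1.06 (0.54 to 1.60). Above 20 its levels were 98.5 CPM in fl/fl and 33.7 CPM in +/+, a ratio of 1.55 (0.84 to 2.32). Il18rap, the accessory chain of the interleukin-18 receptor, was at 121 CPM in fl/fl and 71.2 CPM in +/+ members, a ratio of 0.77 (0.43 to 1.12). Socs3, a feedback inhibitor of cytokine signals, was at 49.1 CPM in fl/fl and 29.4 CPM in +/+ members, a ratio of 0.74 (0.20 to 1.30). Of 32 measured cytokine receptor and STAT genes these 3 were higher, Il6st and Ifngr2 were lower, and the median was -0.02. Cxcr3, the receptor for interferon-induced chemokines, was at 120 CPM in fl/fl and 76.0 CPM in +/+ members, a ratio of 0.65 (0.32 to 1.00) that was 0.11 (-0.28 to 0.51) above 20. Ly6a and Cxcr3 were the 2 higher of 29 measured surface genes, and Itgb7, an integrin chain of gut homing, was the 1 lower, at 120 CPM in fl/fl and 195 CPM in +/+ members. Without the 4 members carrying other-lineage RNA, Ly6a at 0.54 was no longer counted, and the transcription factor Runx2 at 0.66 and the serine protease inhibitor gene Serpinb6b at 0.64 were counted as higher. None of 7 NK receptors was counted either way.

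Naive T cell genes held the opposite calls. Of 23 measured naive T cell genes, none was higher and 6 were lower (Dapl1, Ramp1, Igfbp4, Pik3ip1, Treml2 and Il6st), against 3.61% lower among all genes, with a median log2 ratio of -0.29. Among members above 20, 1 of 17 measured there was lower, Dapl1, and the median of the 23 genes was -0.02. Dapl1 (chromosome 2, 59484653 to 59505020, plus strand), a gene of naive and memory-precursor CD8 T cells, was at 87.7 CPM in fl/fl and 218 CPM in +/+ members, from 36 fl/fl and 61 +/+ cells, a log2 ratio of -1.32 (-1.60 to -1.04). Its value was lower in fl/fl in each band, at 207 CPM in fl/fl and 275 CPM in +/+ at 3 to 5, 139 CPM in fl/fl and 337 CPM in +/+ at 6 to 20, and 16.9 CPM in fl/fl and 97.9 CPM in +/+ above 20. Il6st, the shared signal chain of the interleukin-6 family, was at 61.7 CPM in fl/fl and 103 CPM in +/+ members, a ratio of -0.73 (-1.10 to -0.37) that was -0.04 above 20. Ccr7 was at 92.1 CPM in fl/fl and 118 CPM in +/+ members and was not counted.

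**Figure D4:**
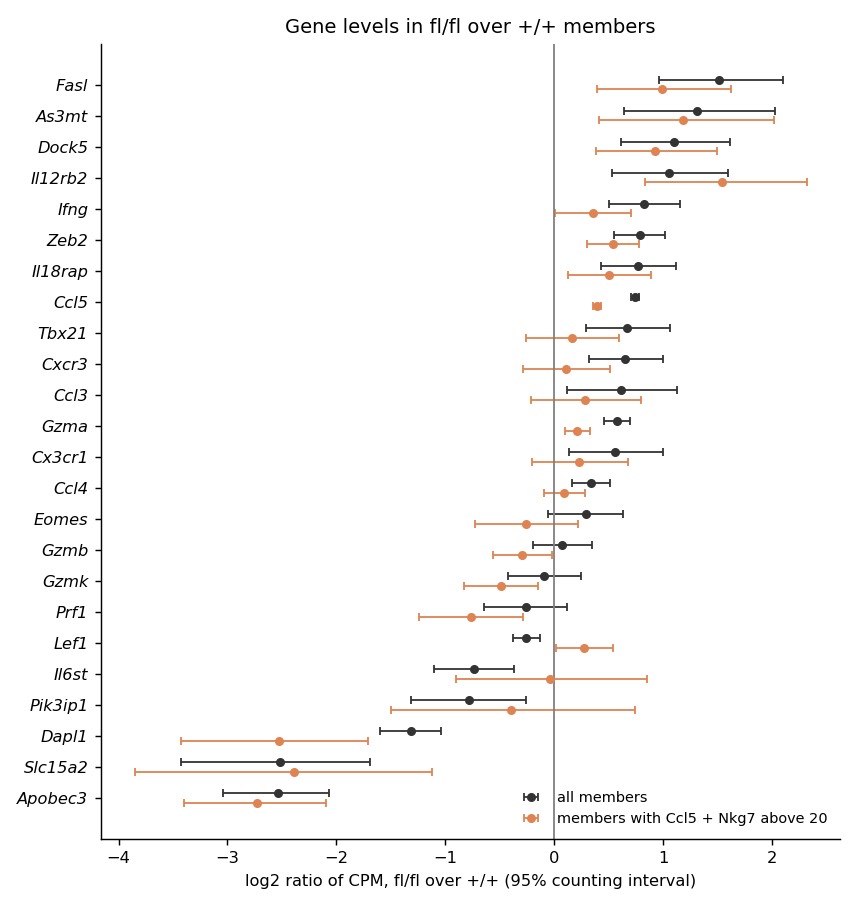
Points give log2 ratios of levels in fl/fl over +/+ members (x axis), with 95% counting intervals for 24 genes (y axis), over all members in black and over members with Ccl5 and Nkg7 above 20 in orange. Tbx21, Cxcr3, Ccl3, Cx3cr1 and Ccl4 have intervals that include 0 above 20, while those of Fasl, As3mt, Dock5, Il12rb2, Zeb2, Dapl1, Slc15a2 and Apobec3 exclude 0 in both sets of cells.

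Both libraries were also given the same weight in each band. The log2 ratio of Ifng was 0.53 under this weighting, that of Zeb2 0.46, Tbx21 0.35, Gzma 0.22 and Cx3cr1 0.22. Each of these was lower than over all members. That of Fasl was 1.19, Il12rb2 0.89, against 1.55 above 20 and 1.06 over all members, Dapl1 -1.06 and Apobec3 -2.59. The weighting was chosen after the data were seen. How much of each ratio the bands account for was not tested. Of the 95 genes higher in members than in other CD8 T cells, 18 were also higher in fl/fl members and 1 was lower. Among all measured genes 1.54% were higher and 3.61% lower. The median log2 ratio was 0.27 for the 95 genes and -0.04 for all measured genes. Both comparisons use the same members, so this overlap is a description.

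Counts for the other functions stand against 1.54% higher and 3.61% lower among all measured genes. None of 37 T cell receptor signalling genes, 20 BCL2 family and death genes and 17 histone H3K4 methyltransferase and H3K27 demethylase genes was counted either way, with medians of 0.00, 0.05 and -0.13. Of 30 immediate-early and dissociation stress genes, 1 was lower (Rgs2), and 6 had positive ratios. Of 8 measured purinergic genes, Adk and Entpd5 were lower. Adk, adenosine kinase, was at 64.0 CPM in fl/fl and 110 CPM in +/+ members, a log2 ratio of -0.78 (-1.13 to -0.42). Of 32 metabolism genes, Slc2a3 was higher and Acadl, Fabp5 and Hadhb were lower. Of 22 cell cycle genes, Ube2c was higher and Mcm5 lower, and 1 cell held 43.8% of the fl/fl Ube2c UMIs. Of 14 inhibitory and costimulatory receptors, Lgals3 and Cd86 were lower. Without the 4 members carrying other-lineage RNA, Rgs2, Acadl, Hadhb, Lgals3 and Cd86 were no longer counted, with log2 ratios of -0.47, -0.54, -0.55, -0.56 and -0.16. Of 21 chemokine receptor and migration genes, Cxcr3 was higher and Ccr9 and Itgb7 were lower.

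The interferon calls differed between all members and the members above 20. Over all members, Iigp1 was higher and Ifi208, Ifih1, Gbp2 and Apobec3 were lower of 40 measured, with a median log2 ratio of 0.08. Among all measured genes 1.54% were higher and 3.61% lower. Among members above 20, where 98 of 5823 genes (1.68%) were higher and 184 (3.16%) lower, 10 of 37 interferon genes measured there were higher and 2 lower. The median ratio above 20 was 0.42 over the 40 genes. Usp18, a protease that removes ISG15, was at 43.4 CPM in fl/fl and 15.2 CPM in +/+ members above 20, a ratio of 1.52. Irf7, a factor of interferon induction, was at 50.8 CPM in fl/fl and 20.2 CPM in +/+ members above 20, a ratio of 1.33. Over all members the ratio of Usp18 was 0.41 (-0.15 to 0.97) and that of Irf7 0.09 (-0.42 to 0.60). The summed interferon list was at 4550 CPM in fl/fl and 4254 CPM in +/+ at 3 to 5, at 4814 CPM in fl/fl and 4149 CPM in +/+ above 20, and at 3916 CPM in fl/fl and 4796 CPM in +/+ at 6 to 20, where 1 +/+ cell held 14.4% of the list's UMIs. Of the 3 bands, only that of 6 to 20 had the lower sum in fl/fl. This band contrast was picked after its values were seen.

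**Figure D5:**
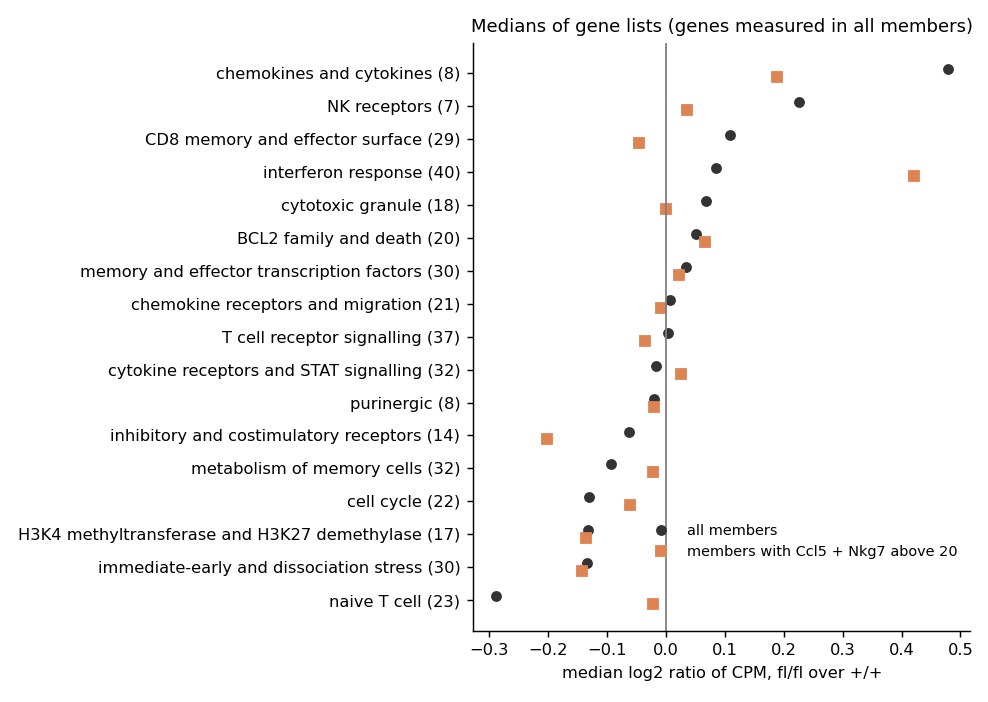
Points give the median log2 ratio, fl/fl over +/+ (x axis), of 17 gene lists (y axis, with the number of genes measured in all members), over all members in black and over members above 20 in orange. Chemokines and cytokines, with Ccl5 of the rule included, have the highest and naive T cell genes the lowest median over all members. The interferon list has the highest above 20.

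Among the genes lowest in fl/fl members, Apobec3 and Slc15a2 were also lower in the other T cell populations. Apobec3 (chromosome 15, 79891659 to 79915906, plus strand), a retrovirus-restricting cytidine deaminase, was at 24.3 CPM in fl/fl and 141 CPM in +/+ members, from 35 fl/fl and 108 +/+ cells, a log2 ratio of -2.54 (-3.04 to -2.06). It was -2.32 (-3.34 to -1.41) in other CD8 T cells, -2.43 (-2.76 to -2.12) in conventional CD4 T cells and -3.00 (-3.13 to -2.88) in Ikzf2-high T cells. Slc15a2 (chromosome 16, 36750177 to 36784962, minus strand), a peptide transporter, was at 8.27 CPM in fl/fl and 47.2 CPM in +/+ members, a ratio of -2.51 (-3.43 to -1.69), and -1.72, -1.72 and -1.96 in the same 3 populations. Ccr9, a receptor of gut homing, was at 12.1 CPM in fl/fl and 42.4 CPM in +/+ members, a ratio of -1.81 (-2.58 to -1.08), against -0.24 (-0.91 to 0.43) in other CD8 T cells, and it had no +/+ UMI above 20. Cnst, which acts in connexin transport, was at 11.6 CPM in fl/fl and 33.5 CPM in +/+ members, a ratio of -1.53 (-2.35 to -0.77).

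Among the highest genes, several were also higher in conventional CD4 T cells. Il12rb2 was at 64.1 CPM in fl/fl and 14.2 CPM in +/+ conventional CD4 T cells, a ratio of 2.17 (1.79 to 2.58), and at 0.03 (-0.20 to 0.26) in Ikzf2-high T cells. Dock5, a guanine exchange factor, was at 70.6 CPM in fl/fl and 32.9 CPM in +/+ members, a ratio of 1.10 (0.61 to 1.61), against 1.81 in conventional CD4 T cells and 0.12 in Ikzf2-high T cells. Fasl had a ratio of 1.12 (0.70 to 1.56) in conventional CD4 T cells and -0.52 (-0.78 to -0.25) in Ikzf2-high T cells. As3mt, an arsenic methyltransferase, was at 42.5 CPM in fl/fl and 17.1 CPM in +/+ members, a ratio of 1.31 (0.64 to 2.02), and 1.23 and 0.63 in those 2 populations. Ubxn11, Isoc1, Map7 and Ern1 completed the 12 highest, with ratios between 0.94 and 1.04. Plac8, which was also high in Ikzf2-high T cells at a ratio of 2.87 (2.78 to 2.96), was at 696 CPM in fl/fl and 450 CPM in +/+ members, a ratio of 0.63 (0.49 to 0.77). Differences between these populations were not tested, since each is 1 library per genotype.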

How the data were processed

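Libraries of splenic cells sorted as CD4+ FoxP3+ were compared, 1 per genotype. Per the submitters' processing notes, fastp, Cell Ranger 7.1.0, Seurat 4.1.1, mm10 and GRCm38 were used, with no steps stated here. The deposited values are raw UMI counts without normalization for 31253 features, found to be whole numbers. Filters behind the deposited barcodes are not given in the sources used here.

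Members were found by the marker rule with Python 3.11.15 (numpy 2.4.6, scipy 1.17.1, pandas 2.3.3). Counts were summed per library and scaled by total UMIs. Ratios have exact conditional binomial intervals, CPM exact Poisson intervals and shares Clopper-Pearson intervals, all at 95%. UMIs of 1 library share mice and cells, so the intervals cover counting error only. Doublets were scored by the method of Scrublet (expected rate 0.06; scikit-learn 1.9.0, scikit-image 0.26.0) and kept. The threshold was automatic in fl/fl and by Otsu's method in +/+, where the automatic one called 0.077% of barcodes. Conventional CD4 T cells had a Cd4 UMI and no Cd8a, Cd8b1, Ikzf2 or Foxp3 UMI, and Ikzf2-high T cells had more than 2 Ikzf2 UMIs and no Cd8a or Cd8b1 UMI, both with the CD3 and Cd79a clauses of the rule. B cells had at least 3 Cd79a UMIs and no Cd3d, Cd3e or Cd3g UMI.

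The members and the 28 gene lists were chosen with earlier results of these data known, and list genes without a feature of the same name are not analysed here. Some genes that meet the naming rule are not reported here. Named genes are the 12 highest and 12 lowest ratios among counted genes with the same direction in thinned cells and without called doublets, likewise the 12 highest and 12 lowest over other CD8 T cells, and list genes. Receptor and immunoglobulin segments, mitochondrial and ribosomal genes, Xist, Tsix and Y-linked genes, and models lacking a symbol were left out of the ranked genes. Gene positions are from GENCODE vM21. The rule of size was tried on simulated Poisson counts for 5762 genes of the fl/fl over +/+ comparison. It called 94% of 50 genes made 2-fold higher, 96% of 50 made 0.5-fold and 1.38% of those left equal. These counts held counting error only, without differences between cells or mice. The 1.38% is therefore no rate of false calls for the real counts.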

Additional observations from a re-analysis of the deposited data

Results flagged for a closer look

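In 6 genes the log2 ratio of fl/fl over +/+ lay on one side of 0 in members and on the other in other CD8 T cells, with both counting intervals excluding 0. The number of genes compared in this way is not given here, so whether 6 is many or few cannot be read. The difference between the 2 populations was not tested, and the other CD8 T cells numbered 99 in fl/fl and 67 in +/+. Itga4, the integrin alpha 4 chain, had ratios of 0.33 in members and -0.64 in other CD8 T cells. Themis, a T cell receptor signalling adaptor, had ratios of -0.12 in members and 0.22 in other CD8 T cells. The microtubule genes Stmn1 and Tuba1b had ratios of -0.33 and -0.46 in members and 1.29 and 0.74 in other CD8 T cells, where the fl/fl cell highest for each gene held 81.7% of the fl/fl Stmn1 UMIs and 38.2% of the fl/fl Tuba1b UMIs. Pclaf, a replication factor, had ratios of -0.54 in members and 3.31 in other CD8 T cells, with 39.6% of the fl/fl member UMIs in 1 cell and 97.7% of the fl/fl UMIs of other CD8 T cells in 1 cell. Irf8 had ratios of -1.80 in members and 3.17 in other CD8 T cells, from 13 UMIs in fl/fl and 1 in +/+, and its member ratio was 1.25 without the members carrying RNA of another lineage.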

How the results depend on the processing

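No paired analysis was possible because each genotype has replicate 1 only, and for the same reason no replicate could be left out. The member share of barcodes past the filters was 2.25% in fl/fl and 1.53% in +/+ with Ccl5 and Nkg7 of at least 6, 1.38% in fl/fl and 0.947% in +/+ when the rule was read on cells thinned to 2500 UMIs, and 2.21% in fl/fl without cells holding an Ikzf2 or Foxp3 UMI. On thinned cells the share of CD8 T cells was 53.2% in fl/fl and 48.3% in +/+. The genes higher and lower in fl/fl were 31 and 42 at a floor of 50 CPM, 211 and 492 without a filter and 11 and 32 at 2-fold, and 142 were higher at a floor of 10 CPM. A floor or fold changes the genes eligible by construction, and the cause of the other differences was not tested.

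Some log2 ratios whose interval over all members excluded 0 changed sign. With Ccl5 and Nkg7 of at least 6, H2-Aa was 0.57, H2-Ab1 2.15, H2-Eb1 2.04, Fmnl2 0.93, Cd74 0.93, Irf8 2.01, Tcf4 3.8, Ly6c2 -0.0070, Ifngr2 0.15 and Cd86 0.0064. Above 20, H2-Aa was 1.06, H2-Ab1 1.65, H2-Eb1 2.79, Fmnl2 1.91, Cd74 1.33, Cst3 0.11, Irf8 1.44, Tcf4 3.79, Lef1 0.28, Ly6c2 -0.045, Igfbp4 2.5 and Ifngr2 0.065. Without the 5% of members with most UMIs, Slpi was -0.32, Hdac9 -2.76, H2-Aa 0.056, H2-Ab1 2.26, H2-Eb1 2.26, Fmnl2 0.26, Cd74 0.16, Irf8 3.48, Tcf4 2.85 and Ube2c -0.18. Without members carrying RNA of another lineage, H2-Aa was 0.25, H2-Ab1 2.47, H2-Eb1 2.36, Cd74 0.13, Irf8 1.25 and Tcf4 2.10. Without an Ikzf2 or Foxp3 UMI, Tcf4 was 0.78 and Ube2c -0.60, and without a Cd4 UMI Tcf4 was 1.89. Without members with a Mki67 or Top2a UMI, Mcm5 was 0.10, Stmn1 0.39 and Lgals3 0.21. Without the member of each library holding most UMIs of the gene, Hdac9 was -2.16 and Tcf4 0.0098. None of those ratios changed sign under scaling to the median gene, thinning, doublet removal, the mitochondrial limit of 5%, Cd8b1 of at least 2, Ccl5 and Nkg7 of at least 2, cells weighted alike or bands weighted alike. A kept sign does not mean an unchanged ratio. With bands weighted alike, for example, the ratios of Ifng and Zeb2 kept their sign but were lower than over all members. The removal of other-lineage, cycling and single top members, the settings above 20 and with bands weighted alike, and the thinned rule were chosen after the data were seen.

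With 35 UMIs of Fasl and 43 of Il12rb2 in +/+ members, ratios of single genes rest on few molecules, and genes under 20 CPM were not counted. The pooled mice allow no estimate of variation between animals.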
